A study of Mus musculus with 4 samples.

Results

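The genes described here are 9 regulators of the primitive streak and its organizer: T (Brachyury), Mixl1, Cdx1, Gsc, Fgf8, Evx1, Wnt3, Snai1 and Mesp1. They were chosen by name from the 47885 rows of the deposited count table, and each matched a single row through GENCODE M21. The series measured RNA in 4 whole C57BL/6 mouse embryos collected at embryonic day 5.5, 1 library per embryo. There were 2 embryos labelled Mettl14+/+ (WT) and 2 labelled Mettl14-/- (KO). Mettl14 encodes a subunit of the enzyme complex that methylates adenosine within messenger RNA (N6-methyladenosine, m6A). The genotype was assigned after amplification, by qPCR for Mettl14 on the same cDNA, so the level of that gene is no independent check, and controls taken because they expressed it may include heterozygotes. The part of the gene removed, and whether the embryos shared a litter, is stated in no source used here. The study asked how the loss of Mettl14 bears on maturation of the epiblast at a stage when mutants looked like their littermates.

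The primitive streak forms at the posterior side of the epiblast when gastrulation starts, after the stage sampled here. WNT3 and NODAL induce it, and signals from the anterior visceral endoderm restrict it to the posterior side. T, MIXL1, EVX1 and MESP1 are transcription factors of the nascent streak and mesoderm, and GSC marks the anterior, organizer end of the streak. SNAI1 acts when cells leave the epithelium, and FGF8 is needed for their migration out of the streak. CDX1 is a caudal-type homeobox factor that posteriorises the embryo downstream of WNT and retinoic acid. Several are also used outside the streak: Gsc and Fgf8 in visceral endoderm, Snai1 in parietal endoderm.

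The consensus core that the METTL3-METTL14 complex prefers reads GGACU in RNA, written GGACT here, and m6A is often found near stop codons. This motif was counted on the sense strand of the longest protein-coding transcript of each gene in GENCODE M21 to show where the candidate letters lie. The 9 transcripts held 2 to 5 matches each. Gsc had 5 matches in 1268 bases (3.94 per kb, at percentile 99.3 of 21877 protein-coding genes), and Cdx1 had 5 in 1750 bases (2.86 per kb, percentile 96.7). The median over all these genes was 1.01 per kb. Mixl1 stood at 1.74, Fgf8 at 1.71, Mesp1 at 1.57, Evx1 at 1.39, Snai1 at 1.23, T at 0.978 and Wnt3 at 0.975 per kb. In Gsc the A of the nearest match lay 13 bases before the end of the stop codon, in Fgf8 23 bases before it and in Snai1 64 bases after it. The stretches of 21 bases around these 3 matches, and around the match in T, 607 bases before the end of its stop codon, are shown 5′ to 3′ with the motif in capitals, because Gsc, Fgf8 and Snai1 separated the groups below and T did not.
Gsc: agcgatttGGACTcggacagc
Fgf8: cagccagaGGACTtgggcccc
Snai1: cactgccaGGACTccttccag
T: gaaccgggGGACTgccagcag
Other genes that did not separate the groups also had matches near the end of the stop codon. These lay 43 bases before it in Mixl1, 91 bases before it in Evx1 and 117 bases after it in Wnt3. In Mesp1 the nearest match lay 327 bases before it. A match describes letters only, since methylation was not measured in these libraries.

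RefSeq promoter windows (GRCm38.p6, 250 bases before to 50 after the start) were found for 6 of the 9 genes and not for Mixl1, Cdx1 and Fgf8. They were searched on both strands for LEF/TCF letters (CTTTGAT, held by 3.73% of 32851 windows, and CTTTGTT, 5.85%), the E-box bound by SNAI1 (CAGGTG, 20.2%), T-box (AGGTGTGA, 1.28%), FOXH1 (AATCCACA, 0.855%), GSC-type homeodomain (TAATCC, 7.06%), CDX (TTTATG, 11.9%) and TATA-box letters (TATAAA, 13.6%). The E-box and T-box motifs can overlap each other, as can the FOXH1 and GSC-type motifs. The E-box letters stood in the windows of T, Evx1, Snai1 and Mesp1. Mesp1 also held CTTTGAT and AGGTGTGA, Wnt3 held CTTTGTT, T held TTTATG, and Gsc held only TATAAA. The GENCODE start of Mesp1 lies 198 bases upstream of the RefSeq start, so every match in its window lay after the GENCODE start. The Wnt3 match also lay after the start. The upstream stretches of Snai1 and Gsc, which differed in opposite directions between the groups, are shown up to the first annotated start, with matches in capitals: the reverse complement of CAGGTG in Snai1 (chr2:167537945-167538194, plus strand), and TATAAA in Gsc (chr12:104473331-104473486, minus strand).
Snai1: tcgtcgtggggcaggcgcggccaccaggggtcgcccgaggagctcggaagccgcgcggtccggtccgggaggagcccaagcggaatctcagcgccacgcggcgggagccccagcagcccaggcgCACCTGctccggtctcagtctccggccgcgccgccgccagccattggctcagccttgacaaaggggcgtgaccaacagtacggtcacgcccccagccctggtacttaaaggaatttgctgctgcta
Gsc: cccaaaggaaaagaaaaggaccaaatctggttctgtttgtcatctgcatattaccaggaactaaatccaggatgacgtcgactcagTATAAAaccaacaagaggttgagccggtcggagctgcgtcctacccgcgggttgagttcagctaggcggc

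Library totals ran from 16108062 to 28698541 counts. Levels are counts per 1000000 (CPM) of the library size after TMM scaling, in which 1 count was worth 0.0359 to 0.0590 CPM. KO replicate 2 stood apart on the first principal component (109, against -77.8 to -5.49 for the other 3, 53.3% of the variance). KO replicate 1 correlated with the WT embryos (0.930 and 0.925, log2 CPM over the genes tested) about as well as with KO replicate 2 (0.923). Mettl14 stood at 34.0 and 31.6 CPM in WT against 4.63 and 8.04 CPM in KO. KO was compared with WT by edgeR's quasi-likelihood test over 15563 genes, and none passed an adjusted p of 0.05 (0% of genes), the smallest being 0.245. By DESeq2 150 genes were higher and 90 lower. At an unadjusted edgeR p under 0.05 there were 1217 genes.

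Of the 9 genes, 7 passed the filter on low counts and were tested. T and Mesp1 did not pass it. None of the 7 was called by edgeR (0% of all genes), and 4 had an unadjusted p under 0.05 (7.82% of all genes): Cdx1 and Snai1 with higher values in KO (4.74%) and Gsc and Fgf8 with lower values (3.08%). The same 4 were the ones whose groups did not overlap (38.2% of all genes; 19.4% with KO above, 18.8% with KO below). DESeq2 called Cdx1 alone, and over all genes it called 1.6% in either direction and 1% as higher. With 2 embryos per group, p-values reflect only how these 4 animals spread.

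Cdx1 (ENSMUSG00000024619, chromosome 18, 61018862 to 61036199, mm10, minus strand) had 6 counts in WT replicate 1 and 33 in WT replicate 2, against 417 in KO replicate 1 and 582 in KO replicate 2. In the same order, these are 0.354 and 1.76 CPM in WT against 19.7 and 20.9 CPM in KO. The KO embryos were within counting error of each other (95% exact Poisson intervals of 17.8 to 21.7 and 19.2 to 22.6 CPM), while the WT embryos were not (0.130 to 0.770 and 1.21 to 2.48 CPM). Reads of amplified cDNA are not independent molecules, so these intervals cover counting error only. The means were 1.06 ± 0.997 CPM in WT against 20.3 ± 0.845 in KO (n = 2, SD), a ratio of 19.2. The log2 fold change was 4.24 (SE 0.74), with an unadjusted p of 0.000417 (22nd smallest of the genes tested) and an adjusted p of 0.27 by edgeR, and an adjusted p of 4.82e-07 by DESeq2. It ran from 3.54 without WT replicate 1 to 5.82 without WT replicate 2. By edgeR it passed without WT replicate 2, KO replicate 1 or KO replicate 2 (adjusted p = 0.0210, 5.12e-05 and 0.00115), and not without WT replicate 1 (adjusted p = 0.126), where Cdx1 had more reads in the remaining WT embryo. Each such fit sets 1 embryo against 2, here and for the genes below: the spread comes from the group that keeps 2, the lone embryo is assumed to vary like them, and a pass is no replicate support. Over all genes these fits called 0.0386%, 1.66% and 0.514% as higher without WT replicate 2, KO replicate 1 and KO replicate 2, and 0.0578% without WT replicate 1. With no filter on low counts the edgeR adjusted p of Cdx1 was 3.39e-08 (0.619% of genes called higher), and by limma-voom it was 0.283. Its paralogs of the caudal family overlapped between groups: Cdx2, a trophoblast and posterior gene, stood at 10.5 and 29.02 CPM in WT against 22.0 and 19.3 in KO, and Cdx4 at 2.65 and 1.55 CPM in WT against 1.94 and 2.08 in KO.

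Snai1 (ENSMUSG00000042821, chromosome 2, 167538195 to 167542814, plus strand) encodes the zinc finger repressor of Cdh1 that acts when cells leave an epithelium. It had 38 and 71 counts in WT against 197 and 264 in KO, or 2.24 and 3.79 CPM in WT against 9.30 and 9.47 in KO. Both KO embryos lay above both WT embryos and close together. The means were 3.02 ± 1.10 CPM in WT against 9.39 ± 0.121 in KO (n = 2, SD), a ratio of 3.11. Its log2 fold change was 1.63 (SE 0.55), with an unadjusted p of 0.0181 and an adjusted p of 0.524 by edgeR, and an adjusted p of 0.272 by DESeq2. The fold change stayed between 1.33 and 2.06 with any 1 embryo left out, and did not pass in any of these fits.

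**Figure D1:**
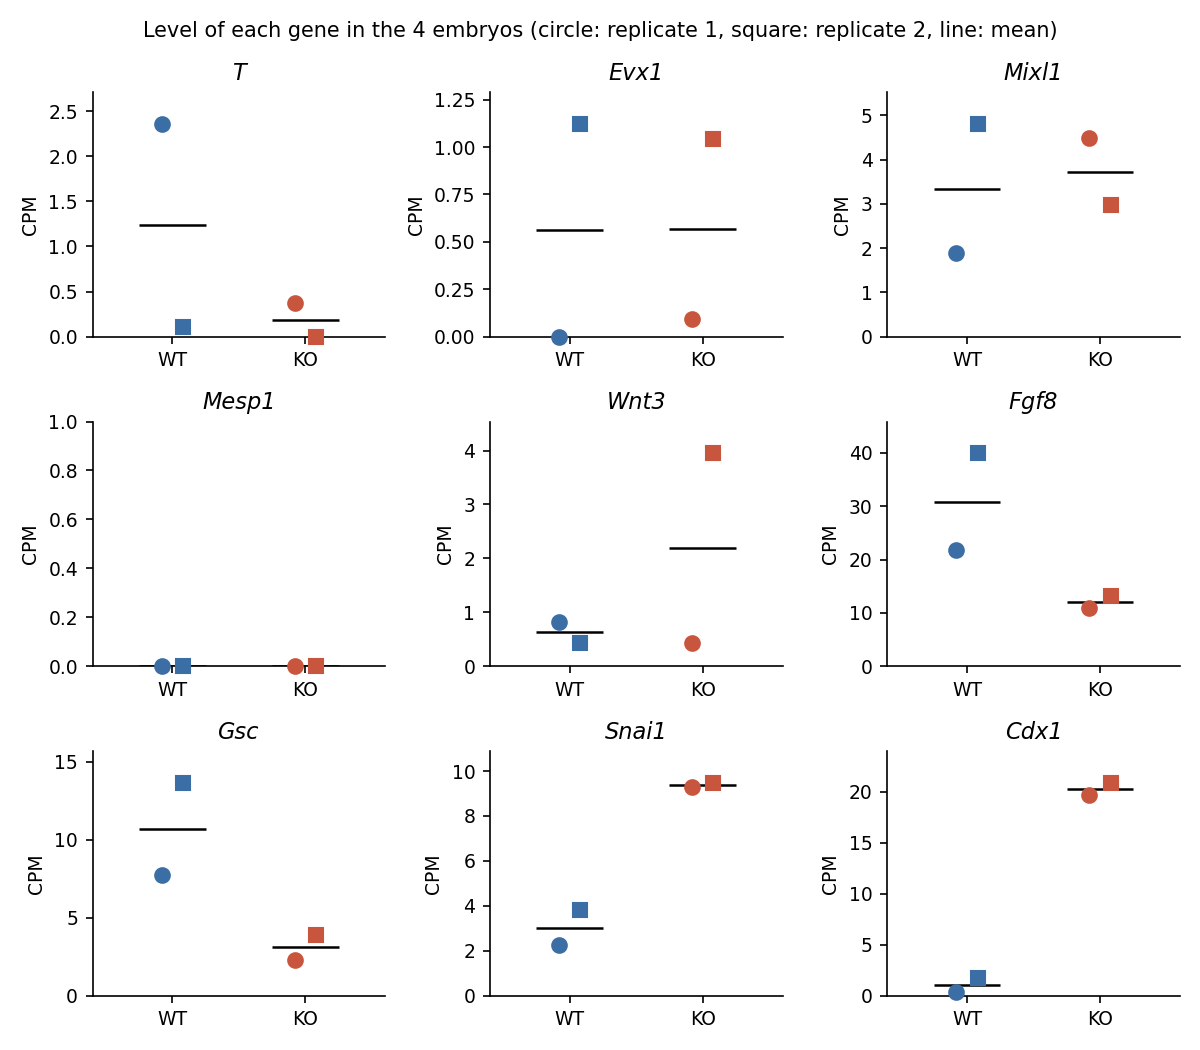
Level in CPM (vertical axes, each from 0 and on its own scale) of the 9 genes in WT and KO embryos. Circles are replicate 1, squares replicate 2, and lines group means. Cdx1 and Snai1 lie higher in both KO embryos, Gsc and Fgf8 lower, and the other 5 genes overlap or are at 0.

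Gsc (ENSMUSG00000021095, chromosome 12, 104471209 to 104473330, minus strand), the goosecoid homeobox repressor of the organizer, had 131 and 255 counts in WT against 48 and 109 in KO. On the CPM scale these were 7.72 and 13.6 in WT against 2.27 and 3.91 in KO. Both KO embryos were below both WT embryos, and within each group replicate 2 was the higher. The means were 10.7 ± 4.17 CPM in WT against 3.09 ± 1.16 in KO (n = 2, SD), so that WT was 3.46-fold higher. The log2 fold change of -1.78 (SE 0.58) had an unadjusted p of 0.0148 and an adjusted p of 0.506 by edgeR, and an adjusted p of 0.204 by DESeq2. It ran from -2.23 without KO replicate 2 to -1.32 without WT replicate 2.

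Fgf8 (ENSMUSG00000025219, chromosome 19, 45736798 to 45742915, minus strand) encodes a secreted fibroblast growth factor needed for migration of cells out of the streak, and was the most abundant of the 9 genes per length in WT. It had 371 and 747 counts in WT against 233 and 367 in KO, or 21.9 and 39.9 CPM in WT against 11 and 13.2 in KO. The groups did not overlap, but in CPM the WT embryos differed from each other by more than WT replicate 1 differed from either KO embryo. The means were 30.9 ± 12.8 CPM in WT against 12.1 ± 1.53 in KO (n = 2, SD), so that WT was 2.56-fold higher. The log2 fold change was -1.35 (SE 0.45), with an unadjusted p of 0.0159 and an adjusted p of 0.514 by edgeR, and an adjusted p of 0.170 by DESeq2. Without WT replicate 2 it was -0.86 (edgeR adjusted p = 0.989), and without WT replicate 1 it was -1.69.

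Wnt3 (ENSMUSG00000000125, chromosome 11, 103774150 to 103817957, plus strand), the WNT ligand required to form the streak, was low in 3 embryos and higher in the fourth. It had 14 and 8 counts in WT against 9 and 110 in KO, or 0.825 and 0.427 CPM in WT against 0.425 and 3.95 in KO. KO replicate 1 was level with WT replicate 2, and KO replicate 2, the library that stood apart, carried the difference. The log2 fold change of 1.80 (SE 1.21; edgeR unadjusted p = 0.174, adjusted p = 0.811) became -0.55 without KO replicate 2 and 2.73 without KO replicate 1 (edgeR adjusted p = 0.129).

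Mixl1 (ENSMUSG00000026497, chromosome 1, 180693043 to 180697034, minus strand), a paired-type homeobox factor of mesendoderm, had 32 and 90 counts in WT against 95 and 83 in KO. The levels were 1.89 and 4.81 CPM in WT against 4.48 and 2.98 in KO, and both KO embryos lay between the WT embryos. The log2 fold change was 0.15 (SE 0.71, edgeR adjusted p = 0.986), and it was negative without WT replicate 1 (-0.36) or KO replicate 1 (-0.09). Evx1 (ENSMUSG00000005503, chromosome 6, 52313498 to 52318378, plus strand), the even-skipped homeobox factor of the posterior streak, had 0 and 21 counts in WT against 2 and 29 in KO. At 1.12 CPM in WT replicate 2 and 1.04 CPM in KO replicate 2 its levels were alike, and replicate 1 of each group was at or near 0. Its log2 fold change was 0.02 (SE 1.87, edgeR adjusted p = 0.999), and ran from -2.50 to 6.67 with 1 embryo left out, the latter against a WT embryo with no read. Exons of Evx1 overlap its antisense transcript Evx1os over 73 bases, and the libraries do not mark strand.

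T (ENSMUSG00000062327, chromosome 17, 8434423 to 8442496, plus strand), the T-box factor that defines the streak and its mesoderm, had 40 and 2 counts in WT against 8 and 0 in KO. The levels were 2.36 and 0.107 CPM in WT against 0.378 and 0 in KO. WT replicate 1 held most of the reads, and its 95% exact Poisson interval of 1.69 to 3.21 CPM did not meet that of WT replicate 2 (0.0129 to 0.386), while KO replicate 1 lay between the WT embryos. With 0 counts KO replicate 2 could reach 3 counts, or 0.108 CPM, about the level of WT replicate 2. T could be fitted only with no filter on low counts, where its log2 fold change was -2.68 (SE 1.66, edgeR adjusted p = 0.895). Mesp1 (ENSMUSG00000030544, chromosome 7, 79792241 to 79793788, minus strand), the bHLH factor of the earliest cardiac mesoderm, had 0 counts in all 4 embryos, which allows up to 0.177 and 0.160 CPM in WT against 0.142 and 0.108 CPM in KO. Its neighbour and paralog Mesp2 stood at 0.118 and 1.12 CPM in WT against 1.09 and 3.87 in KO (log2 fold change 1.99, SE 1.21, edgeR unadjusted p = 0.140).

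Levels of different genes were compared as CPM per kb of exon. In WT the order was Fgf8 (22.9), Gsc (8.42), Snai1 (1.86), Mixl1 (1.46), Cdx1 (0.605), T (0.532), Wnt3 (0.204), Evx1 (0.195) and Mesp1 (0). Only Fgf8 over Gsc and Gsc over Snai1 were steps in which the ranges of the 2 WT embryos did not meet. In KO the order was Cdx1 (11.6), Fgf8 (8.95), Snai1 (5.79), Gsc (2.44), Mixl1 (1.63), Wnt3 (0.711), Evx1 (0.197), T (0.0816) and Mesp1 (0). The ranges of the KO embryos did not meet between Cdx1 and Fgf8, Fgf8 and Snai1, Snai1 and Gsc, or Mixl1 and Wnt3. Cdx1 thus stood at place 5 of the 9 in WT and at place 1 in KO.

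**Figure D2:**
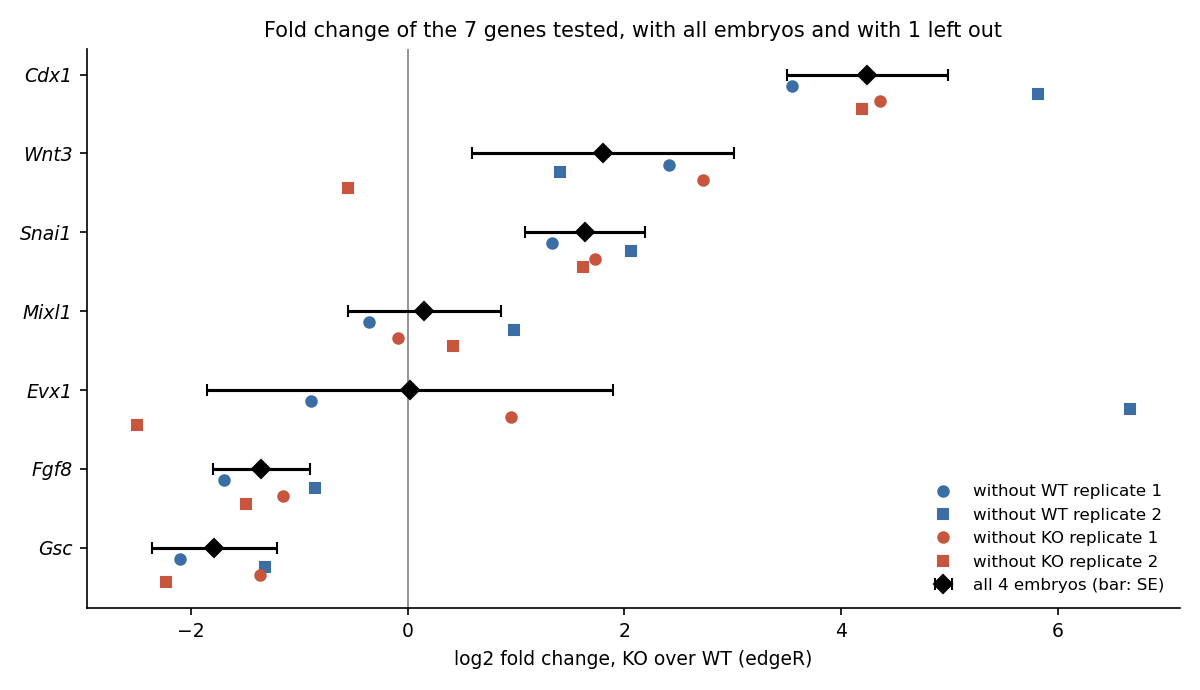
Log2 fold change of KO over WT by edgeR (horizontal axis) for the 7 genes tested. Diamonds with bars give the fit of all 4 embryos and its SE, blue symbols the fits without a WT embryo and red symbols those without a KO embryo (circles replicate 1, squares replicate 2). Cdx1, Snai1, Fgf8 and Gsc keep their side of 0, while Wnt3, Mixl1 and Evx1 cross it.

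Another 24 genes of the streak and early mesoderm were listed, and 19 were tested. By edgeR 0 were called, 9 had higher and 10 lower values in KO, and the median log2 fold change was -0.01, beside -0.03 over all genes tested. Lhx1, a LIM homeobox factor of the organizer and anterior visceral endoderm, had 20.3 and 22.3 CPM in WT against 2.45 and 4.74 in KO (log2 fold change -2.56, SE 0.51, edgeR adjusted p = 0.27) and was the only one that DESeq2 called (adjusted p = 0.000922). Foxa2, the forkhead factor of anterior streak and endoderm, had 6.48 and 9.30 CPM in WT against 0.803 and 2.91 in KO (log2 fold change -2.08, SE 0.74, edgeR unadjusted p = 0.0223). As with Gsc, both KO embryos were below both WT embryos for Lhx1, Foxa2 and Chrd (3 of 19, beside 18.8% of all genes). Both were above for Tbx6 and Fgf3 (2 of 19, beside 19.4% of all genes). Tbx6 passed the filter on low counts through KO alone, so its direction was fixed by that filter. Fgf3 had 0.295 and 1.44 CPM in WT against 1.51 and 2.98 in KO. Tbx6, a T-box factor of paraxial mesoderm, had no read in either WT embryo and 12 and 24 counts in KO, which is at least 8.73-fold higher against the 3 counts that 0 allows over the WT group. Chrd, the BMP antagonist of the organizer, had 4.42 and 1.34 CPM in WT against 1.28 and 0.143 in KO. Eomes and Nodal, which act before the streak forms, overlapped between groups (log2 fold changes of 0.28, SE 0.35, and 0.39, SE 0.47).

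Cdx1 and T are known targets of WNT signalling, and the feedback genes of that pathway are given beside them. The part of WNT signalling in their levels was not tested. Of 11 WNT feedback genes 7 were tested, 4 with higher and 3 with lower values in KO, 0 called by edgeR and a median of 0.30. Axin2, the most general of these targets, had 2.24 and 0.321 CPM in WT against 1.70 and 3.70 in KO. Nkd1, an inhibitor of Dishevelled, had 0.295 and 2.94 CPM in WT against 2.60 and 14.5 in KO (log2 fold change 2.39, SE 1.11, edgeR unadjusted p = 0.0632). Like Wnt3 it was highest in KO replicate 2. Dkk1, a WNT antagonist of the anterior visceral endoderm, had 9.14 and 25.9 CPM in WT against 1.13 and 0.682 in KO, and Apcdd1, another WNT inhibitor, 1.53 and 1.23 CPM in WT against 0.0944 and 0.0718 in KO. Apcdd1 passed the filter on low counts through WT alone. Of these genes DESeq2 called Dkk1 alone (adjusted p = 4.25e-07). For 10 genes of the WNT machinery (Porcn, Wls, receptors, the destruction complex, beta-catenin and TCF factors) the median was -0.15, with 0 called by either tool. The smallest unadjusted p among them was 0.164, for Axin1.

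Cdx1 is also a known target of retinoic acid. Of 15 retinoic acid genes 10 were tested, 3 with higher and 7 with lower values in KO (median -0.45, 0 called by edgeR). Cyp26a1, which degrades retinoic acid and is itself induced by it, had 98.0 and 182 CPM in WT against 52.2 and 22.3 in KO (log2 fold change -1.91, SE 0.50, edgeR adjusted p = 0.386, DESeq2 adjusted p = 0.00659). Crabp2, a carrier of retinoic acid, differed by -0.83 (SE 0.47). Hoxb1, another retinoic acid target, had 2 counts in KO replicate 1 and 0 in the others.

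Around Fgf8, the 10 readout genes of FGF-ERK signalling (Dusp6, the Sprouty and Spred inhibitors, Etv4, Etv5 and 2 receptors) had a median of -0.05, with 4 higher, 6 lower and 0 called by either tool. Around Snai1, 12 of 14 listed genes of epithelium and mesenchyme were tested, with a median of -0.07 and 0 called by either tool. Cdh2, the cadherin that replaces Cdh1 in the streak, had 13.7 and 14.9 CPM in WT against 4.77 and 5.10 in KO (log2 fold change -1.53, SE 0.46, edgeR unadjusted p = 0.00987), a difference opposite in sign to that of Snai1. Cdh1 overlapped between groups. Twist1, a bHLH factor of mesenchyme, had 5.19 and 5.50 CPM in WT against 5.33 and 16.5 in KO, and was high in KO replicate 2 only.

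**Figure D3:**
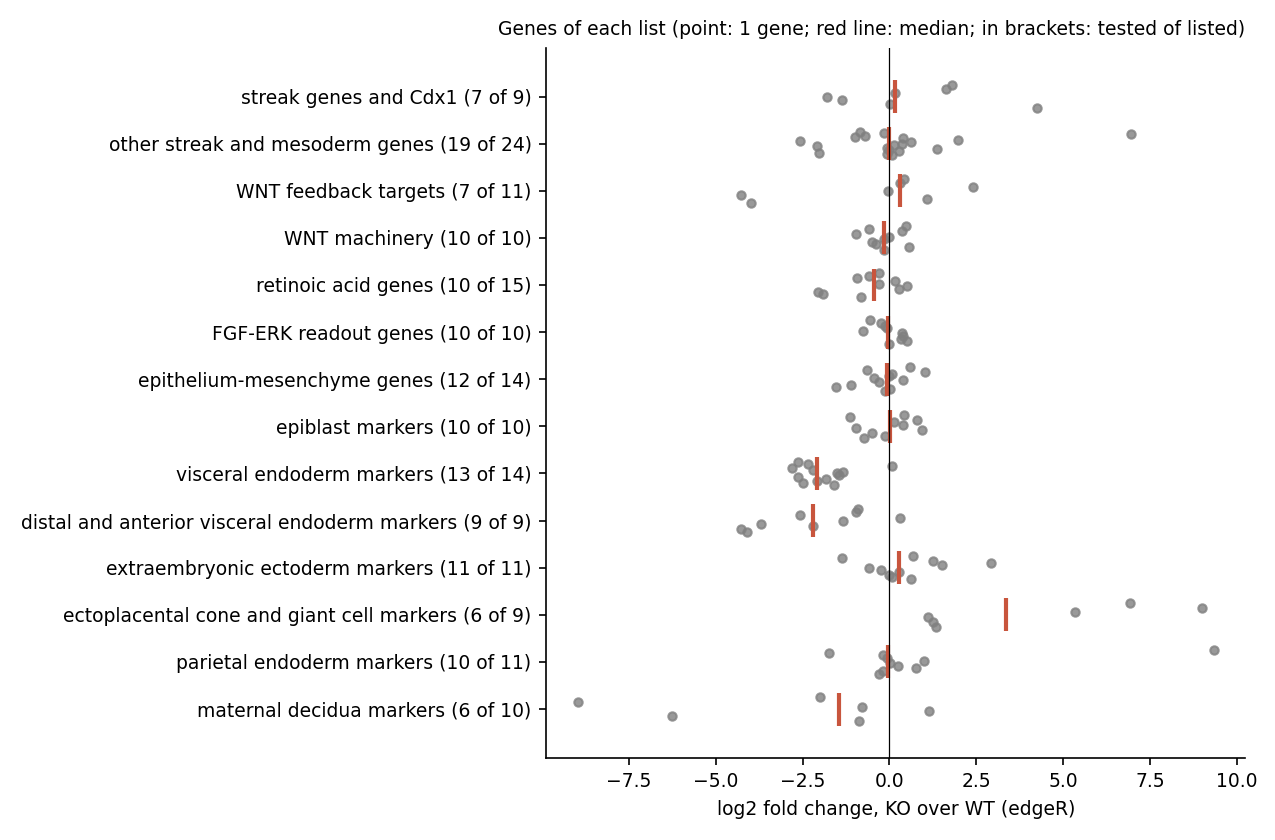
Log2 fold change of KO over WT by edgeR (horizontal axis) for the genes of each list. Grey points are tested genes and red lines list medians, with the number tested of those listed in brackets. The streak and signalling lists centre between -0.45 and 0.30, while visceral endoderm and decidua markers lie lower and ectoplacental cone and giant cell markers higher.

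Because whole embryos were sequenced, fewer cells of a type and less RNA per cell cannot be told apart, and markers of other tissues are given beside these genes. Over all genes tested, 47.7% had higher values in KO. Beside Gsc and Fgf8, 8 of 9 distal and anterior visceral endoderm markers had lower values in KO (median -2.21), and their summed level was 187 and 255 CPM in WT against 69.7 and 108 in KO. DESeq2 called 4 of the 9 lower: Dkk1, Hesx1, Lhx1 and Fzd5 (1.6% of all genes in either direction). Of 13 visceral endoderm markers tested 12 had lower values (median -2.08), with sums of 779 and 2059 CPM in WT against 291 and 364 in KO. DESeq2 called 7 of the 13 lower. Cer1, which defines the anterior visceral endoderm, had 6.66 and 15.8 CPM in WT against 0 and 1.26 in KO (DESeq2 adjusted p = 0.747). Lefty1, Hhex and Sfrp5 of the distal and anterior list overlapped between groups. Beside Cdx1 and Snai1, 6 of 6 tested ectoplacental cone and giant cell markers had higher values in KO (median 3.34), with sums of 374 and 575 CPM in WT against 1859 and 1050 in KO. Prl3d1 and Prl7a1 passed the filter on low counts only with their KO reads, so they count little towards this direction. Hand1, Ascl2 and Phlda2 had log2 fold changes of 1.26, 1.33 and 1.11, and Plac1 of 5.35. DESeq2 called Prl3d1, Plac1 and Prl7a1 higher. The giant cell marker Prl3d1 stood at 0 and 0.695 CPM in WT against 322 and 46.5 in KO. Prl2c2, Tpbpa and Ctsq of that list had 0 counts in all 4 embryos. Of 11 extraembryonic ectoderm markers 7 had higher values (median 0.28), with sums of 853 and 1089 CPM in WT against 1827 and 1278 in KO. Krt7 of that list, a keratin of trophoblast, had 11.2 and 37.8 CPM in WT against 185 and 184 in KO (DESeq2 adjusted p = 4.04e-06). Krt8, its most abundant gene, had 135.5 and 248.2 CPM in WT against 515.6 and 393.6 in KO, so keratins weighed heavily in the KO sums. Without Krt7 and Krt8 the sum of KO replicate 2 would lie no higher than those of the WT embryos. Both KO embryos were above both WT embryos for 4 of the 11 markers (19.4% of all genes) and below for 1, Sox21 (18.8%). Cdx2, Eomes, Elf5 and Esrrb overlapped between groups. Parietal endoderm markers, the tissue in which Snai1 is also used, summed to 428 and 1097 CPM in WT against 686 and 636 in KO, with 5 of 10 higher (median -0.04). DESeq2 called 1 of them higher and 0 lower. This was Thbd, with 0 counts in both WT embryos against 122 and 50 in KO (DESeq2 adjusted p = 0.00105). Thbd passed the filter on low counts through KO alone. Epiblast markers, the tissue that forms the streak, summed to 2553 and 2395 CPM in WT against 1829 and 2854 in KO. Their values went both ways (5 higher, 5 lower, median 0.01, 0 called by either tool). In each direction 3 had groups apart (19.4% of all genes with KO above, 18.8% with KO below). Otx2, also on the anterior visceral endoderm list, Sox3 and Dnmt3b were lower in both KO embryos, with log2 fold changes of -0.97 (SE 0.33), -1.12 (SE 0.35) and -0.72 (SE 0.29) and unadjusted edgeR p of 0.0194, 0.0127 and 0.0367. Nanog, Sox2 and Pou3f1 were higher in both, with log2 fold changes of 0.94 (SE 0.63), 0.80 (SE 0.41) and 0.39 (SE 0.31). Of 6 maternal decidua markers tested 5 had lower values in KO (median -1.44, the same with Hoxa10 at its bound). For 4 of them both KO embryos were below both WT embryos (18.8% of all genes). Among these, Hoxa10 and Col1a2 passed the filter on low counts through WT alone. Hoxa10 had 15 and 93 counts in WT and none in KO, where it was at least 49.5-fold lower against the 3 counts that 0 allows over the KO group (DESeq2 adjusted p = 0.00237). Col1a2 stood at 2.18 and 1.71 CPM in WT against 0 and 0.0359 in KO, and Pgr at 3.60 and 1.496 CPM in WT against 0.850 and 0.431 in KO. Of those under the filter on low counts, Hoxa11 was at 0 throughout, while Esr1, Col1a1 and Prl8a2 had more reads in KO. Esr1 had 0 counts in both WT embryos against 5 and 35 in KO, at least 9.7-fold higher on the same bound over the WT group. Col1a1 had 4 and 2 counts in WT against 12 and 11 in KO, and Prl8a2 had 8 counts in KO replicate 1 alone. The decidua sums, 14.3 and 21.9 CPM in WT against 11.6 and 21.03 in KO, overlapped with Cryab among them, which had 1.95 and 8.18 CPM in WT against 6.42 and 15.9 in KO. The part of these tissues in the differences of Cdx1, Snai1, Gsc and Fgf8 was not tested.

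**Figure D4:**
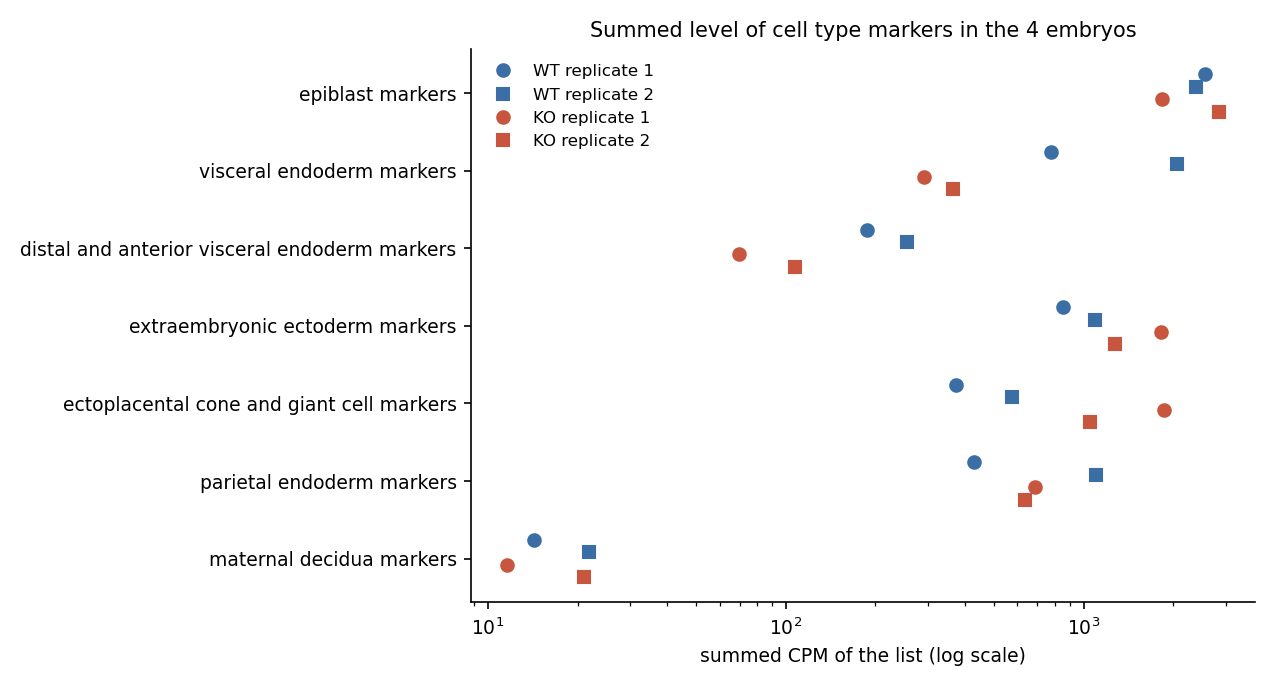
Summed CPM of 7 marker lists in each embryo (horizontal axis, log scale), with WT in blue and KO in red, circles for replicate 1 and squares for replicate 2. Visceral endoderm sums lie lower and trophoblast sums higher in both KO embryos, while the epiblast, parietal endoderm and decidua sums overlap. In the extraembryonic ectoderm list several genes overlap between groups, and Krt7 and Krt8 add much to the KO sums. Without these keratins the sum of KO replicate 2 would lie no higher than those of the WT embryos. The decidua sums include Cryab, the only tested gene of its list with a higher value in KO.

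Genes with the pattern most like that of Cdx1 and of Gsc were sought among 9691 genes by the root mean square difference of log2 CPM, centred on each gene's mean over the 4 embryos. For Cdx1 they were Ptprcap (0.205), Entpd1 (0.277), Esam (0.392), Serpinb6c (0.430) and Dmrt3 (0.611). Entpd1, an ectonucleotidase, had 1.24 and 3.95 CPM in WT against 69.6 and 48.8 in KO, and Esam, an adhesion molecule of endothelium, 0 and 0.160 CPM in WT against 5.67 and 4.70 in KO. For Gsc they were Slc40a1 (0.0611), Dolk (0.0692), Smim20 (0.137), Tent5a (0.191) and Slc7a9 (0.201). Slc40a1, the iron exporter ferroportin, had 33.2 and 63.1 CPM in WT against 9.63 and 17.8 in KO. Over 4 embryos such likeness describes these libraries only.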

How the data were processed

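Per the labels' protocols, cDNA of 4 single embryos was made from polyadenylated RNA by Smart-Seq v4 and read in pairs. The authors deposited raw read counts per gene, not normalised. TopHat, Cufflinks and mm10 are named per the submitters' processing notes, without version or role; no source used here gives the counting program, strand setting or annotation. Symbols, positions and exon lengths came from GENCODE M21 (mm10), which held 46574 of 47885 identifiers.

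Counts were tested with edgeR 4.0.16 (R 4.3.3): filterByExpr (at least 10 counts, total of at least 15), scaling by TMM, dispersions estimated robustly, and a quasi-likelihood F test of KO against WT, with Benjamini-Hochberg adjustment over 15563 genes and a threshold of 0.05. SEs are the absolute log2 fold change over the square root of F. DESeq2 1.42.0, limma-voom (limma 3.58.1), RLE scaling, library totals, 2 other filters, a replicate block and leaving out each library were alternatives. The procedures were tested on simulated counts. The streak genes and all lists were chosen with earlier results of these data known. Named genes were the 9 streak genes, up to 3 tested genes per list with the smallest unadjusted p, and the 5 genes most like Cdx1 and Gsc (at least 5 CPM in a group, prior count 2); other genes were named for their role, after their values were seen. Of the genes this rule names, 1 is not reported here. Marker lists covered epiblast, visceral, anterior visceral and parietal endoderm, extraembryonic ectoderm, ectoplacental cone and giant cells, and decidua.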

Additional observations from a re-analysis of the deposited data

How the results depend on the processing

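No gene was called by edgeR in the fit of all 4 embryos, nor by limma-voom, with RLE scaling, library totals or at least 50 counts in 2 libraries. DESeq2 called 150 genes higher and 90 lower in KO, and edgeR with no filter on low counts 157 and 101; in each of these fits 1 of the 9 genes, Cdx1, was called. With the replicate number as a block 52 genes were higher and 19 lower, and again 1 of the 9, Cdx1 (log2 fold change 4.48, edgeR adjusted p = 0.0405), was called. The labels do not say that a number marks a shared litter or day; the difference between the WT replicates correlated at 0.329 across genes with that between the KO replicates. Leaving out 1 embryo gave 6 to 258 genes higher and 0 to 391 lower, and 0 to 1 of the 9 called. The higher and lower counts were 9 and 18 when WT replicate 1 was dropped, 6 and 0 for WT replicate 2, 258 and 391 for KO replicate 1, and 80 and 35 for KO replicate 2.

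Of the 7 genes tested, Cdx1, Gsc, Fgf8 and Snai1 kept their sign in all 11 alternatives. Mixl1 (-0.36 to 0.98), Evx1 (-2.50 to 6.67) and Wnt3 (-0.55 to 2.73) changed sign with 1 embryo left out. Evx1 and Wnt3 had too few reads for the fit that required 50 counts. T, Evx1 and Mesp1 each had 0 counts in at least 1 embryo, which allows up to 3 counts there.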
